A study of Mus musculus with 7 samples.

Results

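The genes described here are 8 cytosolic chaperones of the mouse heart, taken from 49584 listed features by gene name. They are the HSP90 genes Hsp90aa1 and Hsp90ab1, the HSP90 co-chaperone Fkbp4, the constitutive HSP70 gene Hspa8, and the small heat shock protein genes Hspb1, Hspb6, Hspb7 and Cryab. They were chosen by name with their counts in knockout against control libraries already in view, so their own differences in that contrast are a description and carry no test. Fragments of these mRNAs were counted in small RNA libraries from crude heart mitochondria of 4 knockout mice (L/L, cre; genotype Tefm -/-) and 3 control mice (L/L; genotype Tefm +/+). All mice carried a Tefm exon between loxP sites, and in the knockouts cre was expressed under the muscle creatine kinase promoter, so the deletion is directed to heart and skeletal muscle fibres and other cells of the heart keep the gene. TEFM is the elongation factor of mitochondrial transcription. The design text counts 4 control mice, 3 control libraries were analysed here, no age is stated, and each library was taken as 1 mouse.

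Chaperones bind proteins that are not yet folded or have lost their fold. HSP70 proteins hold short exposed stretches with the help of J-domain partners and hand clients on to HSP90, whose cycle is steered by co-chaperones, and both spend ATP. Small heat shock proteins form oligomers that hold unfolding proteins without ATP, and in heart muscle, where they are abundant, several of them sit on desmin, actin, titin or filamin at the Z-disc of the sarcomere. Many of these genes are switched on by heat shock factor 1, which binds heat shock elements made of inverted GAA units.

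Promoter windows, from 250 bases before to 50 bases after the start of a gene, were found for 4 of the 8 genes in the RefSeq table (GRCm38.p6), as 5 windows because Hspb6 has a pair. One window of each gene is shown, for Hspb6 the one that held a match, and each was searched for heat shock elements. Capitals mark each match to GAANNTTC, the pair of facing units, read on both strands.
Fkbp4, chr6:128438607-128438906, minus strand: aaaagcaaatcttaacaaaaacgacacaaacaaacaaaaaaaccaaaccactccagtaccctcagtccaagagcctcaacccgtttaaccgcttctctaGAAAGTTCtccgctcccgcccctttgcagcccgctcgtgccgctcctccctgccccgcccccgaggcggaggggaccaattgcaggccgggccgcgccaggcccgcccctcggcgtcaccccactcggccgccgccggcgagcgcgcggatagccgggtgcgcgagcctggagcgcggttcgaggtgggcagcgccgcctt
Hspb1, chr5:135887669-135887968, plus strand: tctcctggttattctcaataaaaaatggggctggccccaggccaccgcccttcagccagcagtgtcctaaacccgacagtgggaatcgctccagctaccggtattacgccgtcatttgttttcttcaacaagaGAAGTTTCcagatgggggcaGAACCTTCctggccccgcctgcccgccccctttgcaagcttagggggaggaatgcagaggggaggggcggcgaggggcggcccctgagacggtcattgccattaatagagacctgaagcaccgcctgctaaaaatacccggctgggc
Hspb6, second window, chr7:30553051-30553350, plus strand: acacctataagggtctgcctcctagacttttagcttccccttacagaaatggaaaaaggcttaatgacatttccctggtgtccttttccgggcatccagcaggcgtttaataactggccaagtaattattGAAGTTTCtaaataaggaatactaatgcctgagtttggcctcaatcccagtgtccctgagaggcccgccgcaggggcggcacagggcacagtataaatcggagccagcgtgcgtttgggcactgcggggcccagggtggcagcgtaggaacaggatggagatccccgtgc
Hspb7, chr4:141420529-141420828, plus strand: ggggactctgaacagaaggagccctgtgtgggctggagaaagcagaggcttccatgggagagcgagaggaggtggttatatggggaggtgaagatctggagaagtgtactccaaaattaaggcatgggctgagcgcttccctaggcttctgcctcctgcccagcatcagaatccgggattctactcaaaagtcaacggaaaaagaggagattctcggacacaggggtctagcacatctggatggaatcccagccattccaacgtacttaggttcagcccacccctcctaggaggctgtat
Fkbp4 held a single match, which began 151 bases before the gene's start. Hspb1 held a pair, at 117 and 97 bases before its start. The second Hspb6 window held a single match at 120 bases, with a TATAAA box 29 bases before the start. The Hspb7 window and the first Hspb6 window held none, and no window held the outward pair TTCNNGAA, a triple (either pair with a further alternating unit), or the ATF4 element TGATGNAA. Of the 32851 windows in the table, 7.86% held GAANNTTC, 8.52% held TTCNNGAA, 15.1% held either, 0.603% held a triple, 3.97% held TGATGNAA and 13.6% held TATAAA. These are matches of letters and say nothing of binding. Fkbp4, which lay lower in knockouts, and Hspb1, whose groups overlapped, both carried a match, and Hspb7, which lay higher in knockouts without overlap, carried none.

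The libraries differed in size and make-up. Total counts ranged from 973835 to 1302619 in knockout libraries and from 1560798 to 2570739 in control libraries. Nuclear protein-coding genes took 2.28% to 18.2% of the counts in knockout libraries, with knockout 4 at the top, and 3.27% to 6.23% in control libraries, and mitochondrially encoded RNA took 64.6% to 88.1% in knockout libraries and 70.2% to 87.5% in control libraries. Values are therefore given as nuclear protein-coding CPM (a gene's share of the nuclear protein-coding counts, scaled as counts per 1e6), over denominators of 29203 to 188642 counts in knockout and 51111 to 160267 in control libraries. Lars2 took 16.6% of the protein-coding counts in control 2, against 3.25% to 9.06% in the other libraries. With this scaling the median log2 fold change of all 1602 features tested was 0.27, and changes are also given after taking it off. Tefm itself had 0, 1, 0 and 2 counts in knockouts 1 to 4 and 0, 2 and 1 counts in controls 1 to 3, so its loss was not detectable at this depth, and counts outside the deleted exon would not report it. A feature was called where its Benjamini-Hochberg adjusted p in edgeR's quasi-likelihood test was under 0.05, and 133 features were called higher and 25 lower in knockouts, against 77 higher and 42 lower with TMM scaling (trimmed mean of M values).

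In knockout mitochondria Fkbp4 fragments were 4.05-fold lower than in control mitochondria. Fragments of the 4 small heat shock genes were 1.32-fold to 1.63-fold higher, with overlap between the groups for all but Hspb7. Relative to the median of all features these 4 lay 0.13 to 0.43 higher on the log2 scale. Of the features tested 44.4% had a higher fold change than Hspb6, 40.5% than Hspb1 and 36.1% than Cryab. Hsp90ab1 and Hspa8, the constitutive HSP90 and HSP70 genes, lay within their spread. The 8 genes together took 0.572%, 0.686%, 0.694% and 0.529% of the nuclear protein-coding counts in knockouts 1 to 4, against 0.554%, 0.437% and 0.468% in controls 1 to 3. The averages were 0.620% ± 0.083 in knockouts and 0.486% ± 0.061 in controls (SD, n = 4 and 3), and the groups overlapped, since knockout 4 lay below control 1. Gene by gene, the libraries of the groups did not overlap for 3 of the 8, with Hsp90aa1 and Hspb7 higher and Fkbp4 lower in knockouts. Hsp90aa1 failed the low-count filter, so of the 7 tested genes 1 lay higher and 1 lower without overlap. Of all features tested 19.9% lay higher and 7.37% lower without overlap. Without the 10 most abundant protein-coding genes in the denominator the log2 ratio of the averages was 0.15 in place of 0.35, and with total counts as the denominator it was 1.12. In bulk preparations such as these, fewer cells of a type and less RNA per cell cannot be told apart, nor can RNA bound to mitochondria and RNA of other material in the crude fraction.

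**Figure D1:**
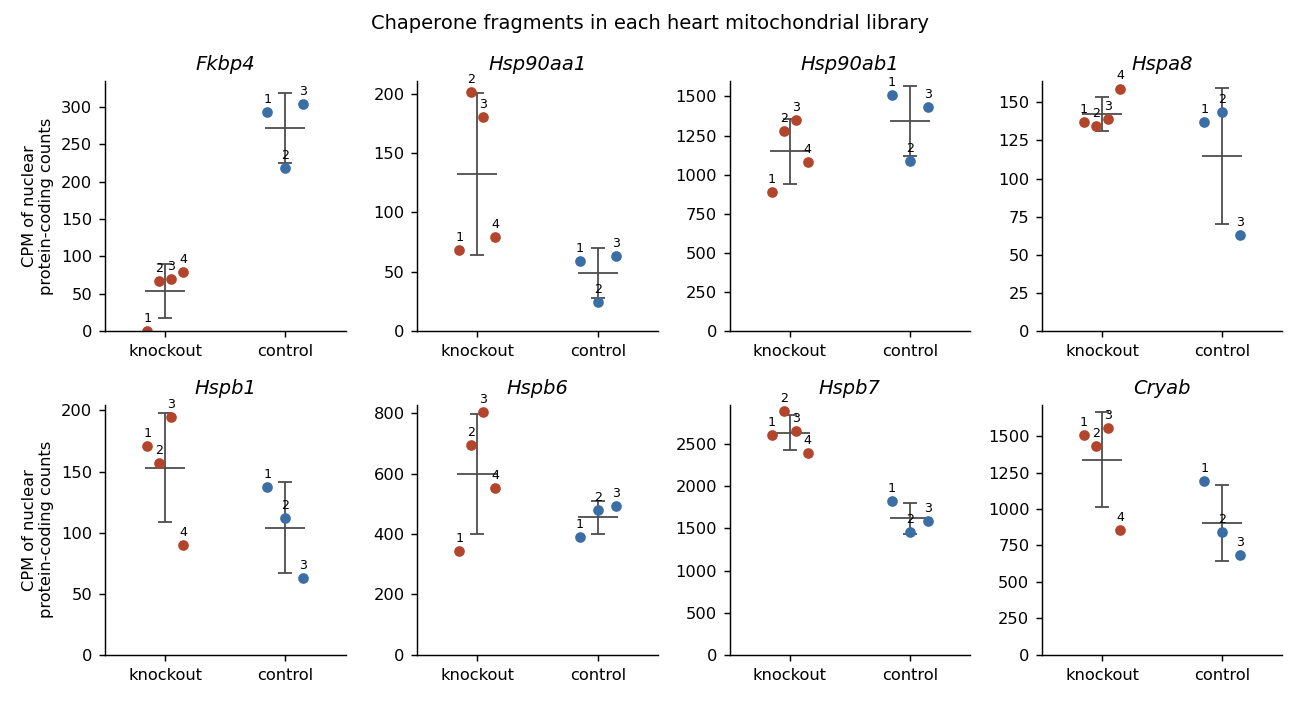
CPM of nuclear protein-coding counts (linear axis from 0) for each of the 8 chaperone genes, with knockout libraries 1 to 4 left and control libraries 1 to 3 right. Points are libraries and bars give the mean ± SD. All knockout points lie under all control points for Fkbp4 and above them for Hsp90aa1 and Hspb7, and the points overlap for the other genes.

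Fkbp4 encodes FKBP52, an immunophilin with peptidyl-prolyl isomerase activity that docks on HSP90 and takes part in steroid receptor complexes (ENSMUSG00000030357.10, chromosome 6, 128429735 to 128438677, minus strand, GRCm38). It had 0, 3, 5 and 15 counts in knockouts 1 to 4 and 15, 35 and 24 counts in controls 1 to 3. In CPM this was 0, 67.2, 69.4 and 79.5 in knockouts, against 293, 218 and 304 in controls. Every knockout library lay below every control library, and the 0 in knockout 1 allows up to 103 CPM (3 counts), which is also under the lowest control. The means were 54.0 ± 36.4 CPM in knockouts and 272 ± 46.6 CPM in controls (SD). The log2 fold change was -2.02 ± 0.42 (SE), or -2.28 relative to the median of all features, and 19 of the 1602 features had a lower one. Summed counts were 23 in knockouts and 74 in controls, a ratio of 0.27 per protein-coding count with an exact 95% interval of 0.161 to 0.436, which covers counting error alone.

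Fkbp4 was the only called gene among the 7 of the 8 that passed the low-count filter, where 9.86% of all features tested were called and 1.56% were called lower in knockouts. Nothing is read from that count, because this contrast chose the genes. Its log2 fold change was negative in each of 21 settings, between -2.34 and -1.11. These settings reuse the libraries the gene was chosen on, so they describe the value and are no support for it. Among the settings without a replicate block the call was lost without control 1 (-1.96), without control 2 (-2.20), without control 3 (-1.97), without knockout 3 (-2.06) and with total counts as the denominator (-1.11).

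Summed markers of 4 of 6 cell type lists of the heart lay lower in knockout libraries. Such sums are led by their most abundant genes, and some markers went the other way. Cardiomyocyte markers were all present, with 8 of 8 tested and none called, and summed to 31592 to 44276 CPM in knockouts, against 50335 to 77146 CPM in controls. Myh6 (mean of 20088 CPM in knockouts and 28792 CPM in controls) and Actc1 (6008 and 13648 CPM) weighed most in that sum. Nppa went the other way without overlap, at 2382 ± 452 CPM in knockouts and 602 ± 399 CPM in controls (SD). At an unadjusted p under 0.05 in edgeR, 1 of the 8 lay higher and 2 lower. DESeq2 with protein-coding size factors called the same numbers, and DESeq2 with its own size factors called 1 higher and 5 lower. Endothelial markers summed to 650.0 to 1399 CPM in knockouts and 1507 to 2315 CPM in controls, and none of the 3 tested of 6 was called (2 lay lower at an unadjusted p under 0.05, and DESeq2 called 2). White blood cell markers summed to 305 to 650.0 CPM in knockouts and 665 to 961 CPM in controls, with 1 of 3 tested lower (Cd74, edgeR adjusted p = 0.0191). Ptprc of the same list, too sparse to be tested, went the other way without overlap. It had 34.2 to 89.7 CPM in knockouts and 0 to 25.3 CPM in controls. Smooth muscle markers summed to 112 to 302 CPM in knockouts and 324 to 367 CPM in controls, with the single tested gene lower (Acta2, edgeR adjusted p = 0.0379). Myh11, Tagln and Cnn1 of that list overlapped between the groups. Fibroblast sums (4486 to 10160.5 CPM in knockouts, 4833 to 7894 CPM in controls) and erythroid sums (111 to 411 CPM in knockouts, 181 to 354 CPM in controls) overlapped. No marker was at 0 in all libraries, and the part of these shifts in the Fkbp4 and other chaperone values was not tested.

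Hsp90ab1 encodes HSP90β, the constitutive cytosolic HSP90 (ENSMUSG00000023944.14, chromosome 17, 45567775 to 45573271, minus strand). It had 890.3, 1278, 1346 and 1081 CPM in knockouts 1 to 4, against 1507, 1086 and 1429.5 CPM in controls 1 to 3. The ranges overlapped, with control 2 inside the knockout range. The log2 fold change was -0.22 ± 0.34 (SE), or -0.49 relative to the median, with 384 counts summed over knockouts and 364 over controls. In counts it lay below Hspb7 and Cryab in knockouts 1 to 3, and below Hspb7 alone in knockout 4 and in the 3 controls. It ranked 74th to 113th among nuclear protein-coding genes in knockout libraries and 53rd to 68th in control libraries.

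Hsp90aa1 encodes HSP90α, the heat-inducible form (ENSMUSG00000021270.13, chromosome 12, 110690605 to 110702728, minus strand). It had 2, 9, 13 and 15 counts in knockouts 1 to 4 and 3, 4 and 5 counts in controls 1 to 3, which was 68.5, 202, 180.4 and 79.5 CPM in knockouts, against 58.7, 24.96 and 63.3 CPM in controls. All knockout libraries lay above all control libraries, though knockout 1 exceeded control 3 by a small margin at 2 and 5 counts. The gene failed the low-count filter (a minimum count of 10 in edgeR's default filter), and its log2 fold change of 1.53 ± 0.55 (SE) comes from the fit with a minimum count of 5. Summed counts were 39 in knockouts and 12 in controls, a ratio of 2.82 with an exact 95% interval of 1.45 to 5.92. Without the 10 most abundant genes in the denominator the groups overlapped.

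Ratios taken inside a library do not depend on how libraries are scaled. Fkbp4 stood at 0, 5.26, 5.15 and 7.35 counts per 100 Hsp90ab1 counts in knockouts 1 to 4, against 19.5, 20.1 and 21.2 in controls 1 to 3. The controls lay close together and all knockouts far below them, at 4.44 ± 3.13 in knockouts and 20.3 ± 0.89 in controls (SD). The knockout values rest on 0, 3, 5 and 15 Fkbp4 counts. Fkbp4 was chosen on this contrast, so its ratio restates the difference and is no separate result. Among HSP90 counts the inducible Hsp90aa1 made up 7.14%, 13.6%, 11.8% and 6.85% in knockouts, against 3.75%, 2.25% and 4.24% in controls. Here too no knockout library reached down to the control range. These percentages rest on few Hsp90aa1 counts, 2 in knockout 1 and 3, 4 and 5 in controls 1 to 3, and the gene failed the low-count filter. Hsp90ab1 stood at 34.2, 44.2, 50.8 and 45.2 counts per 100 Hspb7 counts in knockouts, against 82.8, 74.4 and 90.4 in controls. The means were 43.6 ± 6.90 in knockouts and 82.5 ± 8.02 in controls (SD), again without overlap. Hspb7 itself lay higher in knockouts without overlap and the CPM ranges of Hsp90ab1 overlapped, so this ratio is no separate result on Hsp90ab1.

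**Figure D2:**
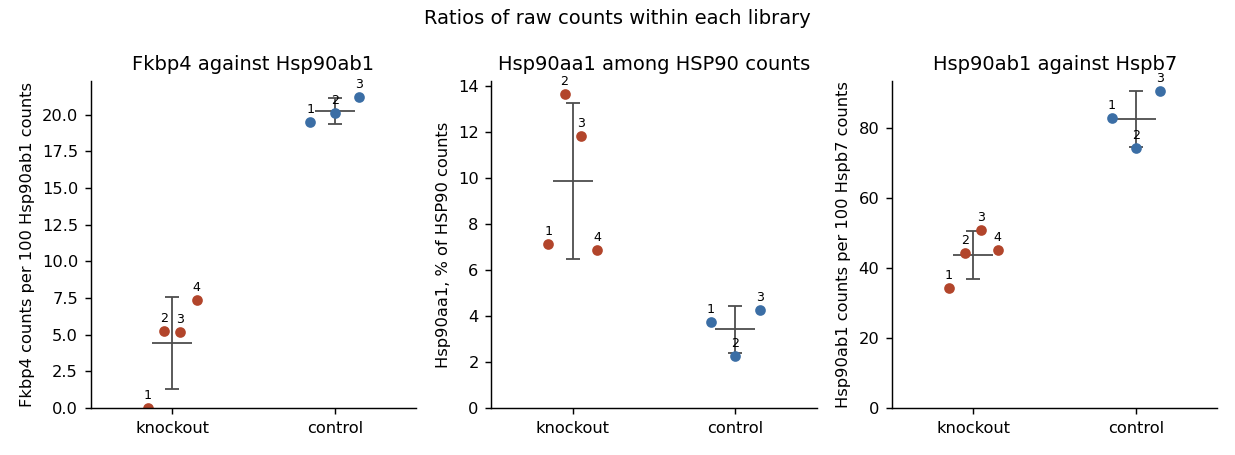
Ratios of raw counts inside each library (linear axes from 0), with knockout libraries left and control libraries right. Points are libraries and bars give the mean ± SD. Fkbp4 per 100 Hsp90ab1 counts and Hsp90ab1 per 100 Hspb7 counts are lower in every knockout library, and the Hsp90aa1 percentage of HSP90 counts is higher in every knockout library.

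Hspa8 encodes HSC70, the HSP70 that cells keep at hand without stress (ENSMUSG00000015656.17, chromosome 9, 40800984 to 40810087, plus strand). It had 137, 134, 139 and 159 CPM in knockouts 1 to 4, against 137, 144 and 63.3 CPM in controls 1 to 3. The groups overlapped, and control 3, at 5 counts, was the low library. The means were 142 ± 11.3 CPM in knockouts and 115 ± 44.6 CPM in controls (SD), with a log2 fold change of 0.32 ± 0.33 (SE), or 0.05 relative to the median. The snoRNAs annotated inside the gene (Snord14c, Snord14d and Snord14e) had 0 counts in all 7 libraries. The inducible HSP70 genes Hspa1a and Hspa1b had 0 to 2 counts per library in either group and were not tested.

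Hspb7, a small heat shock protein of heart and skeletal muscle that binds filamin C, was the most abundant of the 8 in counts (ENSMUSG00000006221.7, chromosome 4, 141420779 to 141425311, plus strand). It had 2602, 2891, 2651 and 2391 CPM in knockouts 1 to 4, against 1819.6, 1460.1 and 1581 CPM in controls 1 to 3. All knockouts lay above all controls, at 2634 ± 206 CPM in knockouts and 1620.3 ± 183 CPM in controls (SD). The log2 fold change was 0.70 ± 0.38 (SE), or 0.43 relative to the median, and 30.3% of the features tested had a higher one. Among nuclear protein-coding genes Hspb7 ranked 17th to 30th in knockout libraries and 42nd to 52nd in control libraries.

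Cryab encodes αB-crystallin, which binds desmin and titin (ENSMUSG00000032060.10, chromosome 9, 50751325 to 50756636, plus strand). It had 1507, 1434, 1555 and 853 CPM in knockouts 1 to 4, against 1193, 842 and 683 CPM in controls 1 to 3. Knockout 4 lay inside the control range and the other knockouts above it. The log2 fold change was 0.56 ± 0.39 (SE), or 0.29 relative to the median. Hspb2, the neighbouring small heat shock gene that overlaps Cryab on the opposite strand, had 1, 2, 4 and 13 counts in knockouts and 1, 5 and 3 counts in controls. That was 4.26 ± 2.60 counts per 100 Cryab counts in knockouts and 3.63 ± 1.96 in controls (SD), and whether counting used the strand is not stated.

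Hspb6 encodes HSP20, a phosphoprotein of cardiac and smooth muscle (ENSMUSG00000036854.14, chromosome 7, 30552178 to 30555443, plus strand). It had 342, 695, 805 and 551 CPM in knockouts 1 to 4, against 391, 480.4 and 493 CPM in controls 1 to 3. Knockout 1 was the lowest of the 7 libraries and the other knockouts lay above every control, so the groups overlapped through that library. Between the groups the log2 fold change was 0.40 ± 0.33 (SE), or 0.13 relative to the median. The genes Proser3 and Lin37, which overlap its ends on the opposite strand, had at most 1 count per library, and the predicted microRNA Gm38670 inside it had none.

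Hspb1 encodes HSP25, the mouse form of human HSP27, which guards actin filaments (ENSMUSG00000004951.10, chromosome 5, 135887919 to 135889563, plus strand). It had 171, 157, 194 and 90.1 CPM in knockouts 1 to 4, against 137, 112 and 63.3 CPM in controls 1 to 3. Knockout 4 was inside the control range and the other knockouts above it, the same arrangement as for Cryab. Its log2 fold change was 0.47 ± 0.41 (SE), or 0.21 relative to the median, on 43 counts summed over knockouts and 30 over controls.

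Summed over the 4 small heat shock genes, the groups did not overlap, but Hspb7, the only 1 of the 4 without overlap by itself, weighed most. Hspb7 had 847 summed counts in knockouts and 452 in controls, against 381 and 250 for Cryab, the next. The 4 genes took 0.462%, 0.518%, 0.521% and 0.389% of nuclear protein-coding counts in knockouts 1 to 4, against 0.354%, 0.290% and 0.282% in controls 1 to 3. They made up 80.8%, 75.5%, 75% and 73.5% of the counts of the 8 chaperones in knockouts, against 64.0%, 66.3% and 60.3% in controls, which is 76.2% ± 3.20 in knockouts and 63.5% ± 3.03 in controls (SD). The second measure is taken within a library, and no knockout library reached the control range. All 8 genes in it were chosen with this contrast in view, so it is no separate result. Cryab stood at 50.5 ± 10.7 counts per 100 Hspb7 counts in knockouts and 55.5 ± 11.4 in controls (SD), and Hspb6 at 22.7 ± 7.11 in knockouts and 28.5 ± 6.15 in controls (SD), both with overlap.

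Per kilobase of exon, the order of the mean levels differed between the groups mainly through Fkbp4 and Hsp90aa1, which changed places around Hspa8. In knockouts the mean CPM per kb was 951 for Hspb7, 904 for Cryab, 383 for Hsp90ab1, 260.3 for Hspb6, 149 for Hspb1, 33.7 for Hsp90aa1, 33.1 for Hspa8 and 19.3 for Fkbp4. Neighbours whose library ranges overlapped there were Hspb7 with Cryab, Hsp90ab1 with Hspb6, Hspb6 with Hspb1, and Hsp90aa1 with Hspa8. In controls it was 613 for Cryab, 585 for Hspb7, 447 for Hsp90ab1, 198 for Hspb6, 101 for Hspb1, 97.3 for Fkbp4, 26.6 for Hspa8 and 12.5 for Hsp90aa1. There the overlapping neighbours were Cryab with Hspb7, Hspb1 with Fkbp4, and Hspa8 with Hsp90aa1. By the group means the co-chaperone thus stood last in knockouts and beside Hspb1 in controls, although in knockout 4 Hsp90aa1 (20.2 CPM per kb) lay below it (28.4 CPM per kb).

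Some of these counts could be shared with gene copies, since how reads with several matching places were handled is not stated. Stretches of 25 bases that also occur in another annotated gene made up 53.5% of those in Hspb1 (all with the pseudogene Hsp25-ps1), 53.3% in Hsp90aa1 (48.7% with Gm12346), 45.4% in Hspa8 (40.0% with Gm15459) and 21.3% in Hsp90ab1. Values of these genes are uncertain to that extent. For Fkbp4 the share was 3.44%, for Hspb6 2.31%, for Hspb7 1.41% and for Cryab none was found. Hsp90aa1 and Hsp90ab1 had 9 such stretches in common.

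Other genes of the chaperone system, and Z-disc and filament partners, were described from 8 lists of related genes. These held 100 further genes, of which 38 passed the low-count filter. Of these 38, 5 rose and 0 fell, with a median log2 fold change of 0.76, where 8.3% of all features tested rose, 1.56% fell and the median was 0.27. Z-disc and filament partners, which are not chaperones, made up 10 of the 38 and 3 of the 5. In the chaperone lists, 1 of 16 cytosolic, 1 of 6 mitochondrial and 0 of 6 endoplasmic reticulum genes tested rose. At an unadjusted p under 0.05 in edgeR, 3 of the tested genes of the endoplasmic reticulum list lay lower in knockouts, and DESeq2 called 1 of them with protein-coding size factors and 3 with its own. Apart from Fkbp4, no gene of the other lists lay lower at that level. A gene with low counts enters the test more readily when it is high in a group, so counts over tested genes are not counts over the lists.

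In the cytosolic HSP70 system, 10 of 28 listed genes were tested, 1 rose and none fell, with a median log2 fold change of 0.85. Hspa4, an HSP110-type exchange factor that recharges HSP70, had 342, 538, 361 and 366 CPM in knockouts 1 to 4, against 196, 144 and 202 CPM in controls 1 to 3. All knockouts lay above all controls, and the log2 fold change was 1.16 ± 0.27 (SE; edgeR quasi-likelihood test, Benjamini-Hochberg adjusted p = 0.035). This call was made in 6 of 20 alternatives and was lost, among others, without control 1, 2 or 3 or knockout 2 or 3, at edgeR adjusted p-values of 0.0595 to 0.154, with TMM scaling (0.0574), without the 10 most abundant genes in the denominator (0.0577) and with total counts (0.475). Dnaja2, a J-domain partner that stimulates HSP70, had a log2 fold change of 1.19 ± 0.32 and did not pass (edgeR adjusted p = 0.0525). Hspa8, at 0.32, lay below both of these partners. Among HSP90 and its co-chaperones 4 of 22 listed genes were tested, none rose and 1, Fkbp4, fell, which is the contrast it was chosen on. Tomm70a, the mitochondrial import receptor that takes preproteins from HSP90 and HSP70, was at 0.94 ± 0.40 on the log2 scale (SE; edgeR adjusted p = 0.166), which passed at the unadjusted level alone, and DESeq2 called no gene of this list higher. Of 10 listed small heat shock genes 5 were tested and none was called, also at an unadjusted p under 0.05 or in DESeq2, with a median of 0.56. Hspb8, the partner of the co-chaperone BAG3, was at 453 ± 82.1 CPM in knockouts and 305 ± 112 CPM in controls (SD; edgeR adjusted p = 0.28), and Hspb9, Odf1 and Cryaa had no count.

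In the cytosolic chaperonin TRiC and its partner prefoldin, which fold actin and tubulin, 4 of 14 listed genes were tested, none was called and the median was 1.03. At an unadjusted p under 0.05, 2 of them lay higher in knockouts, and DESeq2 called 2 with protein-coding size factors and none with its own. Cct8 had a log2 fold change of 1.31 ± 0.37 and Cct5 one of 1.38 ± 0.43 (edgeR adjusted p = 0.0583 for Cct8 and 0.0805 for Cct5). The heat shock factor genes Hsf1, Hsf2 and Hsf4, and Hsbp1, which was listed with them, were too sparse to be tested.

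Z-disc and filament genes whose products small heat shock proteins bind or neighbour were all tested, and 3 of the 10 rose, with a median log2 fold change of 0.99. Synpo2l, a Z-disc actin-binding protein, had 342, 426, 458 and 535 CPM in knockouts 1 to 4, against 58.7, 87.4 and 88.6 CPM in controls 1 to 3. Its lowest knockout library lay well above its highest control library, and the log2 fold change was 2.46 ± 0.27 (SE; edgeR adjusted p = 0.00471). Flnc, which encodes the HSPB7 partner filamin C, stood at 3393 ± 537 CPM in knockouts and 836 ± 185 CPM in controls (SD), with the log2 fold change at 2.02 ± 0.44 (SE; edgeR adjusted p = 0.0292). Xirp1, which binds filamin C and actin, stood at 893 ± 133 CPM in knockouts and 376 ± 45.5 CPM in controls (SD), with the log2 fold change at 1.25 ± 0.28 (SE; edgeR adjusted p = 0.0316). Synpo2l stayed called without each library in turn, while leaving out control 1, 2 or 3 or knockout 2 or 3 ended the calls of Flnc (edgeR adjusted p-values of 0.0518 to 0.135) and Xirp1 (0.07 to 0.142), and TMM scaling also ended that of Xirp1 (0.0534). With total counts as the denominator none of the 3 was called (edgeR adjusted p-values of 0.109 to 0.462). Of 20 alternatives, Synpo2l was called in 19, Flnc in 12 and Xirp1 in 8. Groups did not overlap for any of these 3 genes. Of the 10 listed genes 7 lay higher in knockouts without overlap, where 19.9% of all features tested did. The log2 fold change of Hspb7, at 0.70, was smaller than that of its partner Flnc, a difference that was not tested.

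Among chaperones of the mitochondrial matrix, 6 of 7 listed genes were tested, 1 rose and none fell, with a median of 1.07. Dnaja3, the mitochondrial J-domain protein, stood at 238 ± 47.6 CPM in knockouts and 106 ± 8.02 CPM in controls (SD), with the log2 fold change at 1.13 ± 0.25 (SE; edgeR adjusted p = 0.0292). Hspa9, the mitochondrial HSP70, stood at 1138 ± 209 CPM in knockouts and 458 ± 128 CPM in controls (SD) and did not pass (edgeR adjusted p = 0.0502). In the endoplasmic reticulum 6 of 13 listed genes were tested, with a median of -0.51 and none called in edgeR. Calr, a calcium-binding chaperone of glycoproteins, stood at 279 ± 112 CPM in knockouts and 691 ± 211 CPM in controls (SD; edgeR adjusted p = 0.0662), without overlap. Pdia3, its disulfide isomerase partner, stood at 295 ± 92.6 CPM in knockouts and 524 ± 110.4 CPM in controls (SD; edgeR adjusted p = 0.122). The lists thus had medians on opposite sides of 0 for the mitochondrial and the endoplasmic reticulum chaperones, a difference that was not tested. The call of Dnaja3 was made in 5 of 20 alternatives and was lost, among others, without control 1, 2 or 3 or knockout 2 or 3, at edgeR adjusted p-values of 0.059 to 0.132, with TMM scaling (0.0812), without the 10 most abundant genes in the denominator (0.055) and with total counts (0.478).

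**Figure D3:**
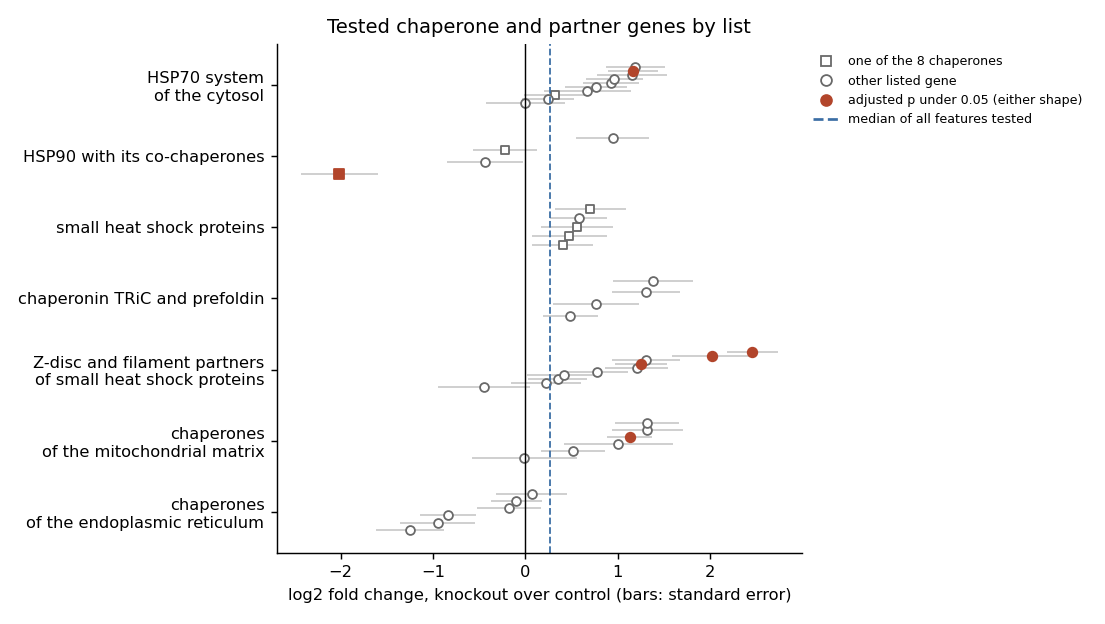
Log2 fold change, knockout over control, of each tested gene in 7 lists, with standard errors as bars. Squares are the chaperones described here, circles the other listed genes, filled symbols those with an adjusted p under 0.05, and the dashed line the median of all features tested at 0.27. Fkbp4 is the filled point at the far left, and the filled points on the right are Synpo2l, Flnc, Xirp1, Hspa4 and Dnaja3.

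The scaling set the sign for Hsp90ab1 and the size for the others. Over 7 scalings the median log2 fold change of all features moved between -0.02 and 0.95. Fkbp4 lay between -2.28 and -1.11, Hspb7 between 0.40 and 1.48, and Hsp90ab1 was negative under 6 scalings and positive (0.64) when total counts were the denominator. Relative to the median of all features the values varied less, with Fkbp4 between -2.29 and -2.06, Hsp90ab1 between -0.49 and -0.31, Hspa8 between 0.02 and 0.16, Hspb1 between 0.12 and 0.21, Hspb6 between 0.11 and 0.25, Cryab between 0.21 and 0.29 and Hspb7 between 0.42 and 0.53. The order among Hspa8, Hspb1, Hspb6 and Cryab differed with total counts. Per library, all 8 genes overlapped between the groups under total counts, and Hsp90ab1 lay lower in all knockouts when the 10 most abundant genes were left out of the denominator.

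**Figure D4:**
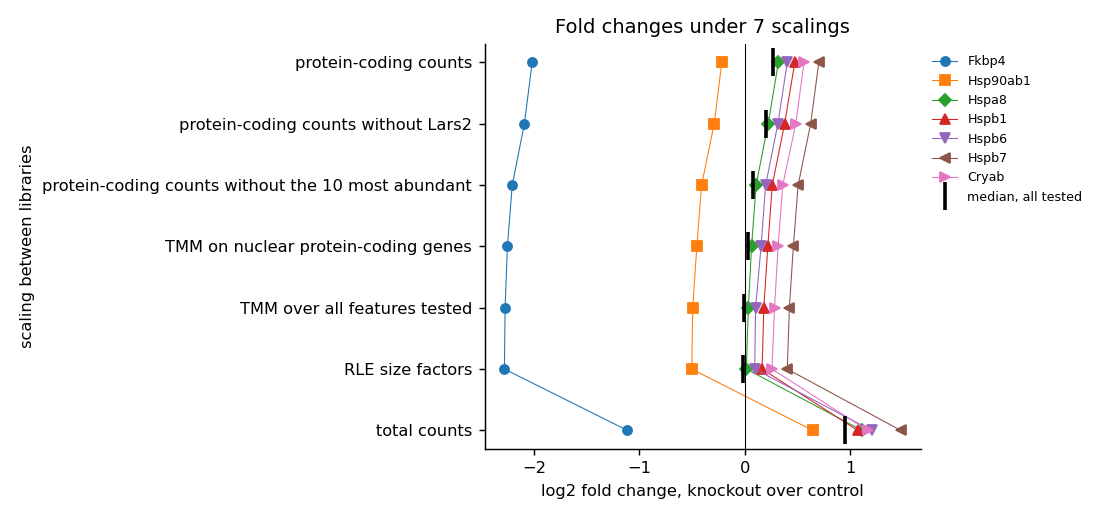
Log2 fold change, knockout over control, of the 7 tested chaperone genes under 7 ways of scaling the libraries, with the median of all features tested as a black bar. Fkbp4 stays far left of the bar and Hspb7 right of it throughout, and every marker moves to the right with the bar under total counts.

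The authors' deposited table gives a log2 fold change of -2.10 ± 0.46 (SE) for Fkbp4, 1.05 ± 0.59 for Hsp90aa1, -0.46 ± 0.25 for Hsp90ab1, 0.03 ± 0.47 for Hspa8, 0.17 ± 0.48 for Hspb1, 0.11 ± 0.37 for Hspb6, 0.41 ± 0.17 for Hspb7 and 0.24 ± 0.31 for Cryab. In order from Fkbp4 at the bottom to Hspb7 and Hsp90aa1 at the top, the 8 genes of the authors' deposited table stand as they do here, from the same libraries.

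The genes that most resembled each chaperone over the 7 libraries were taken by Pearson's r of log2(CPM + 1) among 1313 nuclear protein-coding genes tested, as a description without a test. For Fkbp4 they were Fxyd1 (r = 0.993), Fndc5 (0.986) and Abca8a (0.983), and all of these were lowest in knockout 1, where Fkbp4 had no count. For Hspb7 they were Got1 (0.996), Gars (0.993) and Hspa9 (0.993). Cryab and Hspb1 were each among the 3 nearest genes of the other (r = 0.963), with Rack1, a scaffold protein of the ribosome, near both (0.962 to Cryab and 0.971 to Hspb1), Gspt1 near Cryab (0.976) and Arhgap5 near Hspb1 (0.967). For Hsp90ab1 they were Pygm (0.920), Idh3b (0.884) and Tuba8 (0.864), for Hspa8 Taok1 (0.927), Bmp10 (0.923) and Nploc4 (0.905), and for Hspb6 Ank3 (0.95), Agap1 (0.926) and Vars (0.904). Points in these correlations share their library's depth, and Fkbp4 and Hspb7 themselves correlated negatively (r = -0.59).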

How the data were processed

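Small RNA libraries of crude heart mitochondria from 4 Tefm knockout and 3 control mice were read as raw counts per gene, deposited by the authors as whole numbers with no normalisation. The submitters' processing notes name, without roles, the build mm10 and the tools DESeq2 1.14.1 under R 3.3.2, featureCounts, bedtools, Bowtie2, cutadapt 1.10 and SAMtools 1.3.1. Not given in the sources used here are the annotation release, whether counting used the strand, and the rule for reads that match several places. The authors' deposited table of their comparison holds, per the file headers, the mean signal, log2 fold change and standard error of each gene. It also holds the authors' test score and p-values. A small RNA kit was used per the labels, so a count at an mRNA is a count of short fragments.

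The count test was edgeR's quasi-likelihood test, version 4.0.16 (R 4.3.3), two-sided, with 2 groups and no covariate. Library sizes were nuclear protein-coding counts with normalisation factors of 1, and the default filter (minimum count of 10) left 1602 of 49584 features. Benjamini-Hochberg adjustment ran over all of them, and features under an adjusted p of 0.05 were called. CPM here is relative to nuclear protein-coding counts. Levels per kb used the union of exons in GENCODE M21 (GRCm38). Intervals on summed counts are exact binomial ones (95%) and, without molecular identifiers, cover counting error alone. The fits were tested on simulated data. Alternatives were other scalings, filters and tools (DESeq2 1.42.0), a covariate for the log2 ratio of microRNA and snoRNA to protein-coding counts, a replicate block, leaving out each library, and, added after the data were seen, protein-coding counts without Lars2.

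Earlier results of these data were known when the 8 genes, the lists, the tests and the naming rule were chosen. That rule takes the 8 genes, every called gene of the lists, the 2 tested genes of lowest adjusted p in each list, features overlapping the 8 genes, and for each tested chaperone the 3 genes most like it. Hspa1a, Hspa1b and all marker genes named here were added after their values were seen. Nothing in the labels ties a library to a separate mouse beyond the design text, and where libraries shared a mouse, p-values would measure the spread between libraries alone.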

Additional observations from a re-analysis of the deposited data

Results flagged for a closer look

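Of 32 sets of knockout values checked with Dixon's test for 4 samples at the 95% level, 3 held a library far from the others, and chance flags about 1 in 20 such sets. Fkbp4 had no count in knockout 1, against 67.2 to 79.5 CPM in the other knockouts (gap over range 0.8456), at a depth where 3 counts are 103 CPM, and without knockout 1 its log2 fold change was -1.81. Hspa4 was high in knockout 2 at 538 CPM, against 342 to 366 CPM in the other knockouts (0.8806), and without knockout 2 its log2 fold change was 1.01 and its call was lost (edgeR adjusted p = 0.0595). Tomm70a was high in knockout 2 at 426 CPM, against 167 to 196 CPM in the other knockouts (0.8859), and without knockout 2 its log2 fold change was 0.60.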

How the results depend on the processing

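Calls over all features (158) became 14 with total counts, 285 with nuclear protein-coding genes alone, 265 with no low-count filter, 244 with DESeq2 on protein-coding size factors, 444 with the small RNA covariate and 15 with the replicate block, and 13 to 160 with a library left out, the fewest without control 2 (13), control 3 (39), knockout 3 (49) and knockout 2 (91). Calls among the genes of the pathway lists, Z-disc and filament partners included (6), became 3 with TMM over all features, 3 with TMM on protein-coding genes, 0 with total counts (edgeR, 2 at an unadjusted p under 0.05), 17 with protein-coding genes alone, 3 with a minimum count of 5, 2 with no filter, 14 with DESeq2 on protein-coding size factors, 10 with DESeq2's own factors, 20 with the covariate and 1 with the replicate block, and 1 to 13 with a library left out. Higher and lower calls over all features were 133 and 25, against 77 and 42 with TMM over all features, 83 and 44 with TMM on protein-coding genes, 80 and 51 with median-of-ratios factors, 96 and 44 without the 10 most abundant genes and 122 and 112 with DESeq2's own factors. The log2 ratio of the 8 genes' share (0.35) was 1.12 with total counts and 0.15 without the 10 most abundant genes, and 0.28 to 0.45 with a library left out. None of the 6 called genes of the pathway lists reversed sign in any setting run, and with the replicate block Fkbp4 stood at -2.34 and was not called. Nothing in the labels says that replicate numbers pair the libraries. Correlations of same-numbered deviations were 0.47, -0.74 and 0.27, which cannot settle it with so few libraries. Sparse protein-coding counts limit all values, with 3 counts equal to 15.9 to 103 CPM in knockout and 18.7 to 58.7 CPM in control libraries. The causes of these shifts were not tested.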
